A study of Bos taurus with 9 samples.

Results

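The genes described here are 10 components of the Nodal and activin pathway, chosen by gene symbol: the ligand *NODAL*, its co-receptor *TDGF1*, the convertases *FURIN* and *PCSK6*, the antagonist *LEFTY2*, the receptors *ACVR1B*, *ACVR2A* and *ACVR2B*, and the signal transducers *SMAD2* and *SMAD3*. All 10 had a row among the 21512 genes of the deposited table, and 9 of them passed the detection threshold described below. The samples were single bovine blastocysts collected at day (D) 8 of *in vitro* culture, 5 wild type (WT) and 4 *TEAD4* knockout (KO), with 1 RNA-seq library per embryo. According to the methods of the study, oocytes of both groups were injected with *Cas9* mRNA before fertilization with sperm of a single bull, and only the KO group also received a guide RNA against the fourth exon of *TEAD4*, a transcription factor of the Hippo pathway. KO embryos carried only frame-disrupting alleles, which arise separately in each embryo and can differ between embryos. Embryos are named by their library, with the prefix WT_ for wild type and TE_ for *TEAD4* KO.

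Nodal and activins are secreted dimers of the TGF-beta family. Their precursors are cut by proprotein convertases, and the mature ligands bring together type II receptors (*ACVR2A*, *ACVR2B*) and a type I receptor (*ACVR1B*, also called ALK4), which phosphorylates SMAD2 and SMAD3. These enter the nucleus with SMAD4 and act with partners such as FOXH1. Nodal, unlike activin, needs a co-receptor of the EGF-CFC family, such as TDGF1 (Cripto), and is restrained by Lefty proteins, whose genes are themselves well-known targets of the pathway. In mammalian embryos the pathway is best known for its roles in the epiblast and in germ layer formation.

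Values are transcript levels in TPM, a unit corrected for transcript length and library total, so that genes can be compared within a library. TPM does not keep the number of reads, so the depth behind each value is unknown and a listed 0 cannot be told apart from a level below detection. Between 14776 and 16678 genes were above 0 TPM per library. The edited gene was read in every library, at 40.9 ± 14.7 (SD, n = 5) for WT against 29.8 ± 15.0 TPM (SD, n = 4) for KO embryos, which overlapped; a frame-disrupting indel need not remove the transcript. Markers of all lineages were present: the summed level of 6 trophectoderm markers was 3900 to 17770 TPM, that of 4 epiblast markers 6.87 to 459 TPM and that of 4 hypoblast markers 6.45 to 68.2 TPM over the 9 embryos. WT_1 and TE_3 stood apart with the lowest summed epiblast markers, 6.87 and 10.1 TPM, against 49.7 TPM or more in the other embryos. Since each library holds a whole blastocyst, fewer cells of a lineage and less RNA per cell cannot be told apart. Of 10 markers of cumulus cells, which surround the oocyte, 6 were above 0 in every library, led by *FSHR*. The 4 others, *HAS2*, *TNFAIP6*, *PTX3* and *FOXL2*, were listed at 0 in at least 1 library, and the list summed to 20.6 to 37.8 TPM in WT and 4.87 to 33.1 TPM in KO embryos.

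Of the intracellular and type II receptor arms of the pathway, the D8 blastocyst held abundant *SMAD2* and *ACVR2B* transcripts. It held very few transcripts of the ligands that had a row. Ordered by their median over the 9 embryos, the levels were 37.3 TPM for *SMAD2*, 17.3 TPM for *ACVR2B*, 13.6 TPM for *FURIN*, 3.99 TPM for *ACVR2A*, 3.16 TPM for *LEFTY2*, 3.05 TPM for *TDGF1*, 2.55 TPM for *SMAD3*, 0.133 TPM for *ACVR1B*, 0.103 TPM for *PCSK6* and 0 TPM for *NODAL*. *SMAD2* was above *ACVR2B* in 9 of 9 embryos, *ACVR2B* above *FURIN* in 8 and *FURIN* above *ACVR2A* in 8. *ACVR2A*, *LEFTY2*, *TDGF1* and *SMAD3* could not be ordered, as each was above the next in only 4 or 5 embryos. The step from *SMAD3* to *ACVR1B* was the only one between neighbours at which the ranges of the 9 embryos did not overlap. *ACVR1B* was above *PCSK6* in 5 of 9 embryos.

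**Figure D1:**
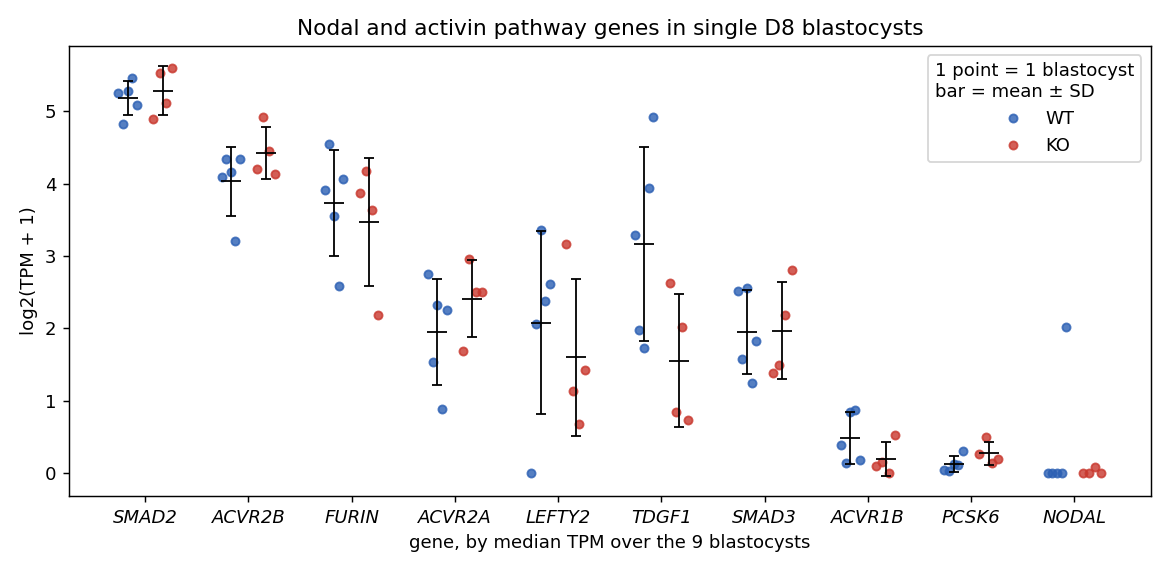
Levels of the 10 pathway genes in single D8 blastocysts. The vertical axis is log2(TPM + 1), each point is 1 embryo (blue, 5 WT; red, 4 KO), and black bars give the mean ± SD, left out for *NODAL*, which was listed at 0 in 7 embryos. *SMAD2* and *ACVR2B* are high in every embryo, *TDGF1* and *LEFTY2* vary widely between embryos, and WT and KO points overlap for each gene.

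*NODAL*, the ligand, was listed at 0 in WT_1 to WT_4 and at 3.05 TPM in WT_5. In KO embryos it was listed at 0 in TE_1, TE_2 and TE_4 and at 0.0641 TPM in TE_3. The level therefore came almost wholly from 1 WT embryo. The gene did not reach the detection threshold and was not among the 14599 genes tested. The other listed ligands with a row were as scarce, while *GDF3* had no row under that symbol. *INHBB*, which encodes the beta B subunit of activin, lay between 0.0937 and 0.578 TPM in WT and between 0 and 0.971 TPM in KO embryos. *INHBA*, the beta A subunit, was above 0 in 4 of 5 WT embryos, at 0.0467 to 0.386 TPM, and in 1 of 4 KO embryos, at 0.026 TPM. *NODAL* and the 7 other listed ligands with a row (*GDF1*, *INHBA*, *INHBB*, *INHBE*, *INHA*, *GDF11* and *MSTN*) summed to 0.239 to 3.65 TPM in WT and 0.093 to 1.65 TPM in KO embryos, and *INHBE* and *MSTN* were listed at 0 in every library.

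*TDGF1*, the co-receptor, showed the largest difference between genotypes among the members. It was at 8.76, 2.94, 2.32, 14.3 and 29.4 TPM across WT_1 through WT_5, and at 5.17, 0.793, 3.05 and 0.66 TPM across TE_1 through TE_4. The 3 highest embryos were WT and the 2 lowest were KO, while TE_1 and TE_3 lay above WT_2 and WT_3. The mean was 11.5 ± 11.1 (SD, n = 5) for WT against 2.42 ± 2.14 TPM (SD, n = 4) for KO embryos, and the highest WT embryo was 12.7 times the lowest. The log2 fold change, KO minus WT on log2(TPM + 1), was −1.62 (standard error, SE, 0.66, 95% interval −3.05 to −0.18, limma adjusted p = 0.784). Taken alone, the gene had an unadjusted limma p of 0.0305, and the 95% interval left out 0. A two-sided exact permutation test on every division into 5 and 4 embryos gave p = 0.0952. The smallest p such a test can give is 0.0159. As these tests differed, whether the gene differed beyond the spread between embryos was not settled. The log2 fold change ranged from −1.98 to −1.18 on leaving out 1 embryo at a time. The embryos highest in *TDGF1*, WT_4 and WT_5, were also the highest in 2 of the 10 cumulus markers: *HAS2* was at 0.520 and 0.294 TPM there and at 0.0131 TPM or less elsewhere, and *TNFAIP6* was at 2.08 and 1.79 TPM there and at 0.575 TPM or less elsewhere. In KO embryos *HAS2* reached 0.0118 TPM and *TNFAIP6* 0.290 TPM at most. WT_1, the next highest in *TDGF1*, had *HAS2* at 0.0131 TPM and *TNFAIP6* listed at 0. Other markers of the list did not share this order. *FSHR*, the most abundant, was at 12.1 and 18.2 TPM in WT_4 and WT_5 and at 26.8 TPM in WT_2. *PTX3* was listed at 0 in WT_4 and WT_5. *LHCGR*, *CYP19A1* and *FOXL2* were highest in TE_3, *GREM1* in TE_2, *STAR* in WT_5 and *AMHR2* in WT_4. Whether cumulus cells were present, and any part of them in the difference in *TDGF1*, was not tested. *CFC1*, the other co-receptor of the EGF-CFC family, was at 6.42 ± 2.03 (SD, n = 5) and 5.78 ± 2.96 TPM (SD, n = 4) in WT and KO embryos, respectively (log2 fold change −0.21, SE 0.39).

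Of the proprotein convertases, *FURIN* was the one found in quantity. It was at 14.1, 22.4, 10.8, 5.00 and 15.8 TPM across WT_1 through WT_5, and at 13.6, 17, 11.5 and 3.53 TPM across TE_1 through TE_4. The lowest embryo of each genotype, WT_4 and TE_4, stood well below the others, and the groups overlapped (log2 fold change −0.27, SE 0.48, 95% interval −1.31 to 0.77, limma adjusted p = 0.982). *PCSK6*, which encodes PACE4, lay between 0.0198 and 0.242 TPM in WT and between 0.103 and 0.415 TPM in KO embryos (log2 fold change 0.15, SE 0.13, limma adjusted p = 0.956, and 0.70 with 0.1 TPM added in place of 1). Its median, 0.103 TPM, was just above the detection threshold of 0.1 TPM. *PCSK5*, a related convertase, averaged 2.80 ± 1.89 (SD, n = 5) and 2.14 ± 2.48 TPM (SD, n = 4) in WT and KO embryos, respectively.

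*LEFTY2*, the extracellular antagonist of Nodal, was found in 8 of 9 embryos although *NODAL* was found in 2. It was listed at 0 in WT_1 and was at 3.16, 9.24, 4.20 and 5.14 TPM in WT_2 to WT_5, and at 7.96, 1.20, 0.597 and 1.68 TPM across TE_1 through TE_4. TE_1 was near the top of the WT range, and the other 3 KO embryos lay between WT_1 and the remaining WT embryos. The mean was 4.35 ± 3.35 (SD, n = 5) for WT against 2.86 ± 3.43 TPM (SD, n = 4) for KO embryos, which gave a log2 fold change of −0.48 (SE 0.66, 95% interval −1.91 to 0.95, limma adjusted p = 0.982). It was −1.0 without TE_1 or without WT_1 and −0.16 without WT_3.

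The type II receptors were carried mainly by *ACVR2B*. *ACVR2B* was at 16.1, 19.2, 16.9, 8.26 and 19.3 TPM across WT_1 through WT_5, and at 17.3, 29.4, 20.8 and 16.5 TPM across TE_1 through TE_4. *ACVR2A* was at 5.76, 1.89, 3.99, 0.857 and 3.77 TPM in the WT and at 2.22, 6.78, 4.65 and 4.68 TPM in the KO embryos. WT_4 had the lowest and TE_2 the highest value of both genes, and the genotypes overlapped. The log2 fold change was 0.40 for *ACVR2B* (SE 0.31, 95% interval −0.28 to 1.07, limma adjusted p = 0.939) and 0.46 for *ACVR2A* (SE 0.42, 95% interval −0.46 to 1.38, limma adjusted p = 0.956).

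The type I receptor *ACVR1B* was scarce in comparison. It was at 0.304, 0.102, 0.803, 0.829 and 0.133 TPM in WT_1 to WT_5, at 0.0673, 0.118 and 0.443 TPM in TE_1, TE_2 and TE_4, and listed at 0 in TE_3. Its log2 fold change was −0.29 (SE 0.20, 95% interval −0.73 to 0.15, limma adjusted p = 0.924), and −1.05 when 0.1 TPM was added in place of 1 (limma adjusted p = 0.897). *ACVR1C* (ALK7), the other type I receptor used by Nodal, was above 0 in 1 embryo only. Together *ACVR1B* and *ACVR1C* reached at most 0.829 TPM in an embryo, while *ACVR2A* and *ACVR2B* summed to between 9.12 and 36.2 TPM. *TGFBR1* (ALK5), the type I receptor of the TGF-beta branch, which also signals through SMAD2 and SMAD3, ranged from 3.23 to 12.2 TPM in WT and from 1.21 to 11.6 TPM in KO embryos.

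*SMAD2* was the most abundant member. It was at 37.3, 27.4, 37.9, 42.9 and 33.1 TPM across WT_1 through WT_5, and at 28.6, 45.0, 33.7 and 47.6 TPM across TE_1 through TE_4, so that the lowest embryo, WT_2, still held 27.4 TPM. *SMAD3* was at 4.74, 1.99, 4.89, 1.37 and 2.55 TPM in WT and at 1.61, 1.83, 3.56 and 6.03 TPM in KO embryos. For neither gene did the genotypes separate. The log2 fold change of *SMAD2* was 0.099 (SE 0.24, 95% interval −0.43 to 0.63, limma adjusted p = 0.985) and that of *SMAD3* was 0.024 (SE 0.40, 95% interval −0.85 to 0.90, limma adjusted p = 0.997).

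Within single embryos, 1 gene of each of 3 pairs with related function predominated. The difference in log2(TPM + 1) was −2.05 ± 0.45 (SD, n = 9) for *ACVR2A* minus *ACVR2B*, 3.27 ± 0.55 (SD, n = 9) for *SMAD2* minus *SMAD3* and 3.42 ± 0.76 (SD, n = 9) for *FURIN* minus *PCSK6*, with the same sign in 9 of 9 embryos in each pair. Each gave p = 0.00391 in an exact two-sided sign-flip permutation test (also 0.00391 after Benjamini-Hochberg adjustment over the 3 pairs), the smallest value that 9 embryos allow. With 0.1 TPM added in place of 1, the difference of *FURIN* minus *PCSK6* was 5.63, as *PCSK6* lies far below 1 TPM. No pair differed between genotypes beyond the spread between embryos: KO minus WT was 0.067 for the type II receptors, 0.075 for the SMADs and −0.42 for the convertases (exact two-sided permutation test, p = 0.825, 0.810 and 0.397, each 0.825 after adjustment over the pairs). The SD between embryos in WT and KO was 0.545 and 0.366 for the type II receptors and 0.605 and 0.567 for the SMADs. For the convertases it was 0.752 and 0.808. Each SD was larger than the difference of its pair.

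**Figure D2:**
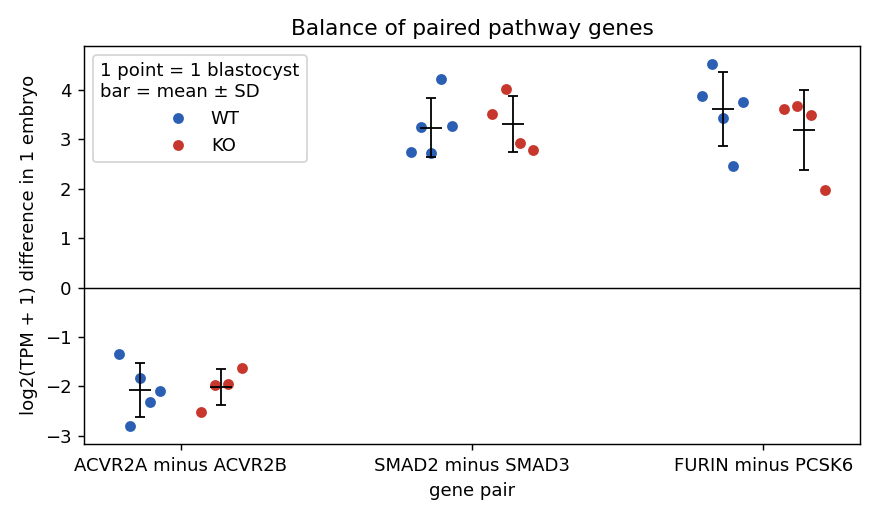
Balance of 3 pairs of genes within each blastocyst. The vertical axis is the difference in log2(TPM + 1) between the genes named on the horizontal axis, each point is 1 embryo (blue, 5 WT; red, 4 KO), and bars give the mean ± SD. *ACVR2B*, *SMAD2* and *FURIN* exceed their partners in each of the 9 embryos, and the genotypes overlap in each pair.

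When WT and KO embryos were compared across the 14599 genes with a median above 0.1 TPM, no member was called changed. A call needed a limma adjusted p-value below 0.05 together with a log2 fold change beyond 1 in either direction, which 0.0205% of all genes tested met. The paper, using DESeq2 and shrunken fold changes, reported more differentially expressed genes for this comparison than were called here. Of the 9 members tested, 1 had an unadjusted p-value below 0.05, against 5.9% of all genes tested. That member was *TDGF1*. WT and KO values overlapped for each tested member, whereas 2.03% of all genes tested had no overlap. The mean was lower in KO for 4 members and higher for 5, where 55.8% of all genes were lower, and the median log2 fold change of the members was 0.024, beside −0.046 over all genes. The 95% intervals spanned more than 1 log2 unit except for *PCSK6* and *ACVR1B*, whose low levels are compressed on the log2(TPM + 1) scale, so that similar levels in the genotypes were not shown. Without WT_1 and TE_3, the embryos with the least epiblast marker RNA, no member was called either.

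Of 44 further genes of the pathway, 41 had a row, 26 passed the threshold and 0 were called changed. In limma an unadjusted p-value below 0.05 was obtained for 5 of them, 4 lower in KO (background 3.83%) and 1 higher (background 2.07%). The groups did not overlap for 1 of the 26, which was lower in KO (background 1.23%), and none of the 26 was higher without overlap (background 0.801%). The median log2 fold change of the 26 genes was −0.20, with 16 lower and 10 higher on the mean.

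*SMAD4*, the partner that SMAD2 and SMAD3 share with the BMP branch, was the gene among these 26 whose genotypes separated. It was at 27.4, 33.5, 30.2, 36.7 and 30.3 TPM across WT_1 through WT_5, and at 17.7, 21.9, 22.1 and 20.2 TPM across TE_1 through TE_4, and the highest KO embryo lay under the lowest WT embryo. The mean was 31.6 ± 3.59 (SD, n = 5) for WT against 20.5 ± 2.03 TPM (SD, n = 4) for KO embryos, which gave a log2 fold change of −0.60 (SE 0.22, 95% interval −1.08 to −0.12). The separation gives the smallest p an exact two-sided permutation test can return here (p = 0.0159), as it does for each of the 2.03% of genes without overlap, and after adjustment over the whole table the gene did not pass (limma adjusted p = 0.727). It lay between −0.65 and −0.54 on leaving out 1 embryo at a time and was −0.69 without both WT_1 and TE_3.

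*FOXH1*, the DNA-binding partner of the SMADs in Nodal responses, was at 7.22, 5.69, 7.54, 12.5 and 13.8 TPM in WT and at 3.67, 4.90, 4.91 and 7.95 TPM in KO embryos. Of the KO embryos, TE_4 lay within the WT range and the others were below it (log2 fold change −0.68, SE 0.35, limma adjusted p = 0.868).

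Among the inhibitors, *FSTL3*, a secreted activin-binding protein, averaged 6.45 ± 2.52 (SD, n = 5) and 2.55 ± 2.28 TPM (SD, n = 4) in WT and KO embryos, respectively. Its log2 fold change was −1.19 (SE 0.46, limma adjusted p = 0.764), and the groups overlapped through WT_4 and TE_3. *BAMBI*, a pseudoreceptor without kinase activity, was at 6.47 to 12.2 TPM in WT embryos and at 8.67, 48.4, 12 and 22.2 TPM across TE_1 through TE_4. Its log2 fold change was 1.05 (SE 0.44, limma adjusted p = 0.798) and became 0.60 without TE_2. *SMURF2*, a ubiquitin ligase that acts on receptors and SMADs, was at 13.4 to 24.4 TPM in WT and at 3.46, 20.1, 4.72 and 9.23 TPM in KO embryos, a log2 fold change of −1.04 (SE 0.43, limma adjusted p = 0.789). *TGFBR3* (betaglycan), a co-receptor of inhibin and TGF-beta, averaged 3.56 and 1.89 TPM in WT and KO embryos, with 4.79 TPM in TE_2 and at most 1.10 TPM in the other KO embryos. *SMURF2* and *TGFBR3* were named after their values were seen.

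The most abundant of the other regulators overlapped between genotypes. *FKBP1A*, whose product binds type I receptors, was at 602 ± 137 (SD, n = 5) and 627 ± 191 TPM (SD, n = 4) in WT and KO embryos, respectively, and *DRAP1*, a repressor that dampens Nodal signalling, was at 104 ± 18.5 and 133 ± 24.7 TPM. Of the TGF-beta ligands, *TGFB1* averaged 1.01 and 0.676 TPM and *TGFB2* 0.952 and 0.644 TPM in WT and KO.

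Of the genes listed as pathway targets, *GSC* was the one to pass the detection threshold. *GSC* (goosecoid), a homeobox gene of the organizer, was at 1.06, 17.5, 68.9, 45.4 and 25.2 TPM across WT_1 through WT_5, and at 50.0, 15.2, 8.99 and 17.8 TPM across TE_1 through TE_4. The genotypes overlapped, and the lowest embryo was WT_1, in which *LEFTY2* was listed at 0. The log2 fold change of *GSC* was −0.014 (SE 0.87) and became −0.84 without WT_1. Its sign changed when 0.1 TPM was added in place of 1 (0.11) or when libraries were rescaled by median-of-ratios factors (0.039). *TBXT* (brachyury), a mesoderm gene, was listed at 0 in all 5 WT embryos and at 0.418, 0.149, 0.195 and 0.386 TPM in the KO embryos. The KO embryos thus lay above the WT embryos, but the gene did not reach the detection threshold and was not among the 14599 genes tested. The shares of genes without overlap given above cover only those genes, so none applies to *TBXT*. *EOMES*, *MIXL1* and *FOXA2* did not reach it either. The first 2 ran the other way from *TBXT*, listed at 0 in all 4 KO embryos. *EOMES* was at most 0.228 TPM and *MIXL1* at most 0.555 TPM in WT embryos, each also listed at 0 in some of them. *FOXA2* was above 0 in WT_2, WT_5 and TE_1, at 0.393 TPM at most.

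**Figure D3:**
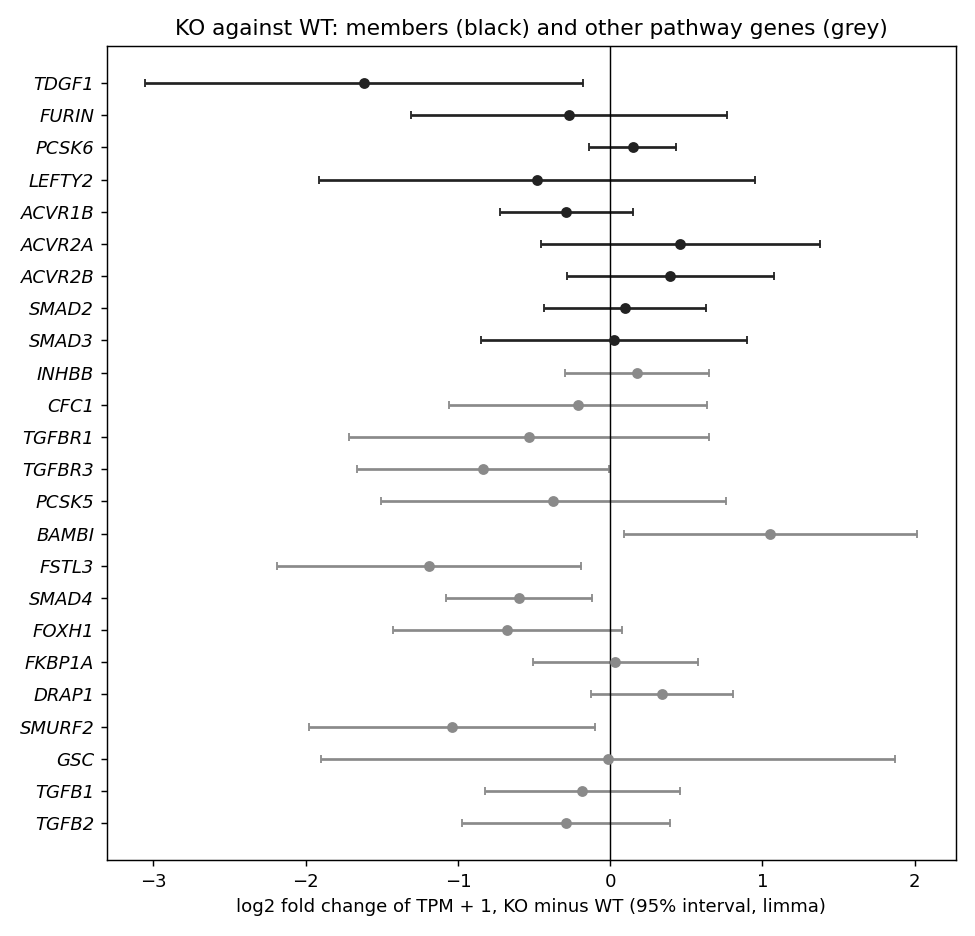
Differences between genotypes for the tested members (black) and the other pathway genes named in the text (grey). The horizontal axis is the log2 fold change of TPM + 1, KO minus WT, with its 95% interval from limma, not adjusted for the number of genes. The interval of *TDGF1* runs from −3.05 to −0.18 and that of *SMAD4* from −1.08 to −0.12; no gene shown was past the threshold after adjustment.

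As embryos of 1 genotype differed widely, the members were also compared with the lineage markers of each embryo. An epiblast score (*SOX2*, *NANOG*, *FGF4*, *PRDM14*) and a hypoblast score (*GATA4*, *SOX17*, *PDGFRA*, *RSPO3*) averaged, for each embryo, the z-scores of its markers on the log2(TPM + 1) scale. The epiblast score was 0.203 ± 1.07 (SD, n = 5) for WT against −0.253 ± 0.826 (SD, n = 4) for KO embryos (exact two-sided permutation test, p = 0.460), and the hypoblast score 0.328 ± 0.787 (SD, n = 5) and −0.410 ± 0.292 (SD, n = 4) (exact two-sided permutation test, p = 0.111). The hypoblast markers differed among themselves. *GATA4* was at 1.09 to 1.75 TPM in WT and 0.367 to 0.957 TPM in KO embryos (limma adjusted p = 0.684). Such a separation, lower in KO, was found for 1.23% of all genes tested. *SOX17*, *PDGFRA* and *RSPO3* overlapped, with log2 fold changes of −1.12, −0.55 and 0.066. Of 18 relations of the 9 tested members to the 2 scores, 0 passed an adjusted p-value of 0.05 and 2 had an unadjusted p-value under 0.05.

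The strongest relation was that of *LEFTY2* to the epiblast score over the 9 embryos, with Pearson's r = 0.798 (exact permutation p = 0.0130, adjusted p = 0.234) and Spearman's rho = 0.767 (exact permutation p = 0.0214, adjusted p = 0.348). WT_1 and TE_3, with the lowest epiblast scores, also had the lowest *LEFTY2*, and r was 0.440 without these embryos, so that the relation rests in part on them. It was 0.786 with values centred on the mean of each genotype. *ACVR2A* ran the opposite way, with r = −0.659 (exact permutation p = 0.0392, adjusted p = 0.353), rho = −0.617 (exact permutation p = 0.0857, adjusted p = 0.348) and r = −0.645 without the same embryos. *LEFTY2* against the hypoblast score had r = 0.543 (exact permutation p = 0.124, adjusted p = 0.373). This r was 0.335 without WT_1 and WT_5, and 0.448 to 0.773 on leaving out 1 embryo at a time. The rho of *LEFTY2* with the hypoblast score was 0.6 (exact permutation p = 0.0968, adjusted p = 0.348).

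For *TDGF1* the relation to the epiblast score was weaker and did not pass the test (r = 0.255, exact permutation p = 0.514, adjusted p = 0.771; rho = 0.25, exact permutation p = 0.521, adjusted p = 0.873; r = 0.647 without WT_1 and TE_3). WT_1, with the lowest epiblast score, had the third highest *TDGF1*. For the hypoblast score, r was 0.591 (exact permutation p = 0.106, adjusted p = 0.373), rho was 0.383 (exact permutation p = 0.313, adjusted p = 0.804) and r was 0.557 without WT_1 and WT_5, although it was 0.230 without WT_5 alone and 0.803 without WT_1 alone. The KO embryos were lower on average both in *TDGF1* and in the hypoblast score, and with values centred on genotype r was 0.389.

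**Figure D4:**
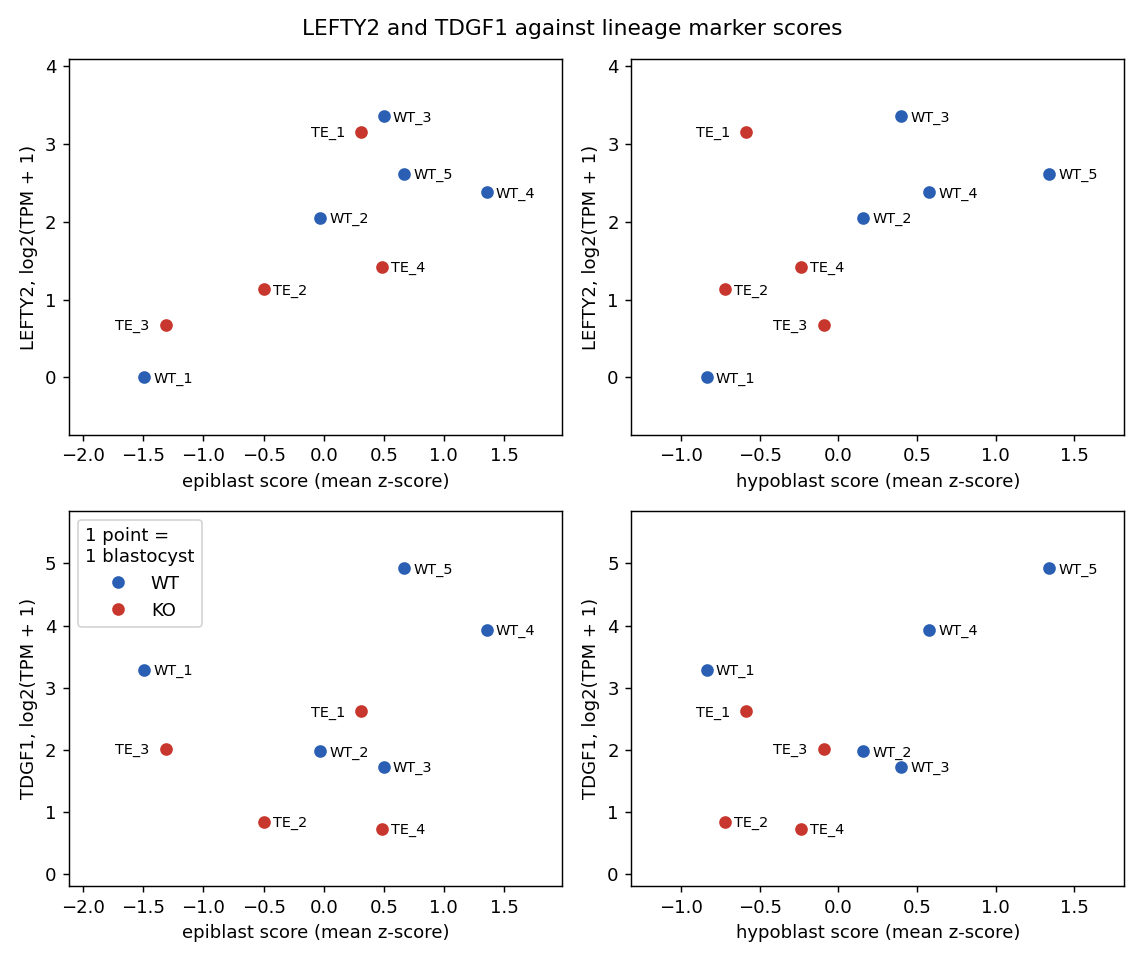
*LEFTY2* (upper row) and *TDGF1* (lower row) against the epiblast score (left) and the hypoblast score (right). Vertical axes are log2(TPM + 1), scores are mean z-scores over 4 epiblast or 4 hypoblast markers, and each labelled point is 1 embryo (blue, WT; red, KO). *LEFTY2* is lowest in WT_1 and TE_3, the embryos with the lowest epiblast scores, whereas *TDGF1* in WT_1 is above every KO embryo.

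The genes most like *LEFTY2* over the 9 libraries, among all genes tested, were *KAZALD1* (r = 0.955), *IHH* (r = 0.944) and *ADGRE5* (r = 0.944). *IHH*, which encodes a hedgehog ligand, was at 1.17 TPM in WT_1 and at 6.59 to 9.05 TPM in the other WT embryos, and at 6.38 TPM in TE_1 and 1.95 to 2.98 TPM in the other KO embryos. The genes most like *TDGF1* were *SEPTIN10* (r = 0.941), *FAM170A* (r = 0.903) and *PHLDA1* (r = 0.901). *SEPTIN10* was at 24.8 TPM in WT_5 and 2.76 TPM in TE_2, its highest and lowest values. These genes were the highest of 14599 correlations over only 9 libraries and are given as a description.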

How the data were processed

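RNA-seq libraries were made from whole D8 bovine blastocysts (5 WT, 4 KO), each from 1 embryo. The deposited table gives TPM values computed by the authors for each gene and library, each library summing to 1000000. The submitters' processing notes name FastQC, fastp and kallisto. Versions, annotation and genome build are not given in the sources used here, so no coordinates are printed. The labels and the paper's methods describe different RNA extraction and library kits, only one of which keeps strand, so reads of overlapping genes may not be separable. Column names gave the genotype of each library, and 0 columns were left out. Of the member symbols, 9 are RefSeq symbols of the ARS-UCD2.0 gene table and 1 (*TDGF1*, listed there as *CRIPTO*) is a synonym.

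DESeq2, used in the paper on counts, was not run, as the table holds TPM. Genes with a median above 0.1 TPM, the paper's threshold, were tested on log2(TPM + 1) with limma 3.58.1 (lmFit, eBayes with trend) in R 4.3.3, with Benjamini-Hochberg adjustment over all 14599 genes; a call needed an adjusted p-value below 0.05 with a log2 fold change beyond 1 in either direction. Fold changes on this scale understate those of low genes. The procedure was tested on simulated data whose changes were larger than those of the members on this scale. How it performs on smaller changes was not tested. Single values, scores and ratios were compared by exact permutation tests (Python 3.11.15, numpy 2.4.6, scipy 1.17.1). Epiblast and hypoblast scores and their relations to members used the same scale.

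The members and gene lists were chosen with earlier results of these data known. Named genes are the 10 members, pathway genes called changed or not overlapping between genotypes, the 2 most abundant genes of each role, the edited gene, and the 3 genes most correlated with *LEFTY2* and with *TDGF1*. *GDF3*, *LEFTY1* and *DAND5* had no row under these symbols and are not analysed here. Of the listed genes, 2 are not reported here and were left out of the counts, scores and adjustments. The settings varied were the pseudocount (0.1 TPM), the filter (none, or a median above 1 TPM), the scaling (median-of-ratios size factors), the variance trend of limma, the centring of values on genotype in correlations, and the leaving out of each embryo. Leaving out both WT_1 and TE_3 was added after seeing the data.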

Additional observations from a re-analysis of the deposited data

Results flagged for a closer look

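In 7 of 53 sets of values of 1 named gene in 1 genotype, 1 embryo stood farther from the rest than Dixon's 95% critical value allows. Chance gives such a value in about 5% of sets of normally distributed values, a rate that does not apply to sets filled with zeros. In 3 of the 7 sets every other value was 0, so that any value above 0 stands apart by construction. *NODAL* was at 3.05 TPM in WT_5 with every other WT embryo at 0, and at 0.0641 TPM in TE_3 with every other KO embryo at 0. *INHBA* was at 0.026 TPM in TE_1, with the other KO embryos at 0. *LEFTY2* in TE_1 (7.96 TPM) stood above the other KO embryos, as did *TGFBR3* in TE_2 (4.79 TPM). *DRAP1* in WT_3 (137 TPM) and *TGFB2* in WT_1 (2.16 TPM) stood above the other WT embryos.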

How the results depend on the processing

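The number of genes called changed over the whole table was 3. It was 8 with a pseudocount of 0.1 TPM, 8 with a median above 1 TPM, 5 with median-of-ratios size factors, 5 in limma without trend and 5 without both WT_1 and TE_3. It ranged from 0 to 10 when each embryo was left out, with 10 without TE_3 and 0 without TE_1, TE_2, TE_4, WT_3 or WT_4, fits in which 824 to 1235 genes had an unadjusted p under 0.05. No member and no other pathway gene was called in any of these fits, and no relation to a lineage score passed an adjusted p of 0.05 in any of its alternatives. The predominance of *ACVR2B*, *SMAD2* and *FURIN* held its sign and its side of the threshold in each alternative run. Every embryo had the same sign in each pair, so neither leaving out embryos nor another pseudocount could change this. No paired analysis was possible because the labels number the embryos without repeats and describe no pairs.

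Several differences changed sign, and the cause was not tested. *GSC* was 0.11 (pseudocount of 0.1 TPM), 0.039 (median-of-ratios size factors) and −0.84 (without WT_1) to 0.44 (without WT_3) when each embryo was left out (positive without TE_2, TE_3, TE_4, WT_3, WT_4 or WT_5). Without both WT_1 and TE_3, *TGFBR1* was 0.025 and *TGFB2* 0.10, beside −0.53 and −0.29 with all embryos. Leaving out single embryos gave −0.56 to 0.16 for *FURIN* (positive without TE_4), −0.0073 to 0.23 for *SMAD2* (negative without TE_4), −0.26 to 0.22 for *SMAD3* (negative without TE_3, TE_4, WT_2, WT_4 or WT_5), −0.42 to 0.11 for *CFC1* (positive without TE_1) and −0.14 to 0.19 for *FKBP1A* (negative without TE_2, TE_4, WT_1 or WT_5). The difference between genotypes in the pairs ranged from −0.11 to 0.25 for *ACVR2A* minus *ACVR2B* (negative without WT_2 or TE_4) and from −0.16 to 0.32 for *SMAD2* minus *SMAD3* (negative without WT_1, WT_3 or TE_2). *ACVR1B*, *PCSK6* and *NODAL* lie so low that their precision, with depth unknown, cannot be judged from TPM.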

Other observations

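*GSC* and *LEFTY2* ranked the embryos in a similar order, a pair picked because its values were seen to run together, so that no p-value is given. Both genes were highest in WT_3, followed by TE_1, and lowest in WT_1, TE_3 and TE_2. Over the 9 embryos Pearson's r of log2(TPM + 1) was 0.929 and Spearman's rho was 0.967. The value of r was 0.890 without WT_1 and TE_3, 0.952 with values centred on genotype and 0.973 with a pseudocount of 0.1 TPM. *TDGF1* had r = 0.0048 with *GSC* and rho = 0.067, with r = −0.396 without WT_4 and WT_5.

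*NODAL* was above 0 only in WT_5 and TE_3. WT_5 also had the highest *TDGF1* (29.4 TPM), *INHBA* (0.386 TPM), *FOXH1* (13.8 TPM) and *SOX17* (38.1 TPM) of the 9 embryos. *ACVR2B* and the epiblast score had r = −0.541 over the 9 embryos (exact permutation p = 0.0993, adjusted p = 0.373) and rho = −0.333 (exact permutation p = 0.385, adjusted p = 0.820). Without WT_1 and TE_3, r was −0.923. That value was the farthest from 0 among the 18 relations with 2 embryos left out, and was picked for that reason. Among the embryos kept, WT_4 had the lowest *ACVR2B* (8.26 TPM) and the highest score (1.36). TE_2 had the highest *ACVR2B* (29.4 TPM) and the lowest score (−0.499).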
